A study of Mus musculus with 8 samples.

Results

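The genes described are 9 that mark microglia, the resident macrophages of the brain: Csf1r, Cx3cr1, P2ry12, Trem2, C1qa, C1qb, C1qc, Tmem119 and Aif1. They were taken as a fixed list, found by Entrez identifier among the 27178 genes of the tables, and all 9 were found and had reads in all 8 libraries. The libraries come from embryonic mouse cortex, in a study of the long noncoding RNA Lockd and the cell cycle of cortical progenitors. In the first experiment, ICR embryos of wild-type genotype received 3 µg/µl of plasmid into the lateral ventricle by electroporation at embryonic day (E) 14.5. The plasmid expressed either a short hairpin RNA against Lockd (Lockd-shRNA, 2 libraries) or a control (2 libraries), and GFP-positive cells were isolated by flow cytometry at E16.5. In the second experiment, whole cortices of untreated C57BL/6 embryos were taken at E13.5 and pooled, from PlyA-KI animals (2 libraries) or wild-type (WT) animals (2 libraries). The labels give PlyA-KI only by that name, and do not say how many embryos stand behind a library or whether the gate of the sort excluded immune cells. Sorted cells and whole cortex thus differ also in strain, age, electroporation and experiment, and these cannot be told apart.

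Microglia descend from yolk-sac progenitors that enter the embryonic brain early, independently of the neural lineage that electroporation at the ventricle targets. Their survival depends on the receptor CSF1R, and they touch neurons and progenitors through receptors for chemokine, nucleotide and lipid signals. They are a main brain source of C1q, the recognition protein that starts the classical complement pathway and that is assembled from the products of C1qa, C1qb and C1qc. TMEM119 and P2RY12 are often used to tell microglia of the mature brain from other macrophages, whereas Csf1r, Cx3cr1, Aif1, Trem2 and the C1q genes are also used by other macrophages.

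Promoters of these genes are shown because several are known targets of the myeloid factor PU.1, the product of Spi1. Another reason was that the C1q genes varied with the other microglia genes (Pearson's r 0.90 to 0.96), as Csf1r did (0.96). This was after centring levels within each experiment. Between sorted cells and whole cortex, C1qb had a smaller fold change than C1qa and C1qc. RefSeq windows (GRCm38.p6, 300 bases, 250 before to 50 after the start site of the window) were matched for 6 of the 9 genes. Shown are the 2 C1q windows, that of Aif1, the gene with the highest sorted-to-cortex fold change, and that of P2ry12, the gene with the lowest. Capitals mark GAGGAA or the longer GAGGAAGT, the core and an extended form of the PU.1 site, on either strand (TTCCTC and ACTTCCTC on the other), and the longer motif contains the shorter.
C1qb (chr4:136886151-136886450, minus strand): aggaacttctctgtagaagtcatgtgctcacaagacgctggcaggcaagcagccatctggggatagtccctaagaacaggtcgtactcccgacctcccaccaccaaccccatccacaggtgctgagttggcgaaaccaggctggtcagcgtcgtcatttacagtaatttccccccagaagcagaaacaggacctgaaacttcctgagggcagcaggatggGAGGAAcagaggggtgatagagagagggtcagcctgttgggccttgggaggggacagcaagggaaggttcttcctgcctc
C1qc (chr4:136892865-136893164, minus strand): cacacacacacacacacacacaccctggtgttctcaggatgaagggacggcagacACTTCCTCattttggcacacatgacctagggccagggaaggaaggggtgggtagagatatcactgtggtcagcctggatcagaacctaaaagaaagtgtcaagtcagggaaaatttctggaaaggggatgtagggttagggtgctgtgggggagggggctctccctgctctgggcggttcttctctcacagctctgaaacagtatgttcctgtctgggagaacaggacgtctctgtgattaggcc
Aif1 (chr17:35176003-35176302, minus strand): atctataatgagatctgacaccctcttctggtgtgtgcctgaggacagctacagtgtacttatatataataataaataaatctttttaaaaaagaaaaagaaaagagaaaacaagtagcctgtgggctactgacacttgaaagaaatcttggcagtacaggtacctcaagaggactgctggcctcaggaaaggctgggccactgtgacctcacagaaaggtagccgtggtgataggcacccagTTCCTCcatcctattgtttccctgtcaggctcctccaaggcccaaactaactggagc
P2ry12 (chr3:59262936-59263235, minus strand): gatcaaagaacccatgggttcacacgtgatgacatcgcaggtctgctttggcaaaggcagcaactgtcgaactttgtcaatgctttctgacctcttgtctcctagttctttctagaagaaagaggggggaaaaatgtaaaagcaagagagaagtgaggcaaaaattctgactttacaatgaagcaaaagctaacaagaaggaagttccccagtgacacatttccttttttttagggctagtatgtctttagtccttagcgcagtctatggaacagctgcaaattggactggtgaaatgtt
The core motif was found in 4 of the 6 windows, against 28.3% of all 32851 windows of this length. It began at position -30 in C1qb, -193 in C1qc, -7 in Aif1 and -40 in Trem2, counted from the start site of the window. In C1qc and Aif1 that start site lay inside the gene, whose outer end in RefSeq is at 136892936 and 35176083. The marked letters of Aif1 thus also lay inside the gene. The windows of P2ry12 and Cx3cr1 held no match. The longer motif was found in 1 of the 6 windows, that of C1qc, against 3.2% of all windows. Whether PU.1 bound these letters was not measured.

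The sorted libraries held 12805874 to 15911118 counts and the whole-cortex libraries 35167646 to 47460020. Microglia genes were rare in all of them: their 9 counts together came to 301 and 404 in the Lockd-shRNA libraries, 419 and 123 in the control libraries, 569 and 870 in the PlyA-KI libraries and 764 and 902 in the WT libraries. Levels are given below as CPM, each count scaled by the total count of its library. The 2 libraries within each group were not alike to within counting error, with a chi-square per gene of 11.7 to 24. Sampling alone gives about 1 if reads were counted independently. Low counts in the cortex tables were mostly even, so there it may give more. The value covers genes throughout the tables and not the microglia genes alone. Lockd itself was at 4.85 and 2.83 CPM in Lockd-shRNA libraries against 8.9 and 7.8 CPM in control libraries, and at 0.102 and 0.0569 CPM in PlyA-KI libraries against 22.1 and 24 CPM in WT libraries. Genes of cortical neurons were abundant in every library, at a summed 6197 to 7679 CPM in sorted cells and 4068 to 6058 CPM in whole cortex.

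The library control 2 stood apart for these genes. Its 9 microglia genes summed to 8.57 CPM, against 32.7 CPM in control 1 and 22.5 and 25.4 CPM in the Lockd-shRNA libraries. Control 1 was above control 2 by 3.82 times over the 9 genes summed (95% exact interval 3.12 to 4.71, counting error only). Control 2 was the lowest sorted library for 7 of the 9 genes, all but Tmem119 and Aif1, and control 1 was the highest for 8, all but P2ry12. Among cortices, PlyA-KI 1 had 0.586 times the summed level of PlyA-KI 2 (95% exact interval 0.526 to 0.652), and the WT libraries had a ratio of 1.02 (0.927 to 1.13). Low counts in the cortex tables were mostly even, so the exact intervals of cortices may be too narrow. Some other lists moved with control 2 and others did not. It was the lowest sorted library for the summed shared myeloid genes (81.8 CPM, against 133 CPM in control 1 and 113 CPM in each Lockd-shRNA library). The same held for border-associated macrophage genes (8.85 CPM, against 9.78 to 15.1 CPM), although their F13a1 was highest there (4.04 CPM) among sorted libraries. Pericyte, fibroblast and meningeal genes were also lowest in control 2 (7.8 CPM, against 9.74 to 15.5 CPM). For the remaining lists it was not the lowest sorted library, as for other microglia genes (88 CPM) and endothelial genes (70.1 CPM). Control 2 was highest for radial glia and progenitor (1698 CPM), interneuron and oligodendrocyte precursor (78.4 CPM), and monocyte, granulocyte and lymphocyte genes (2.3 CPM). The part of these lists in the results below was not tested.

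**Figure D1:**
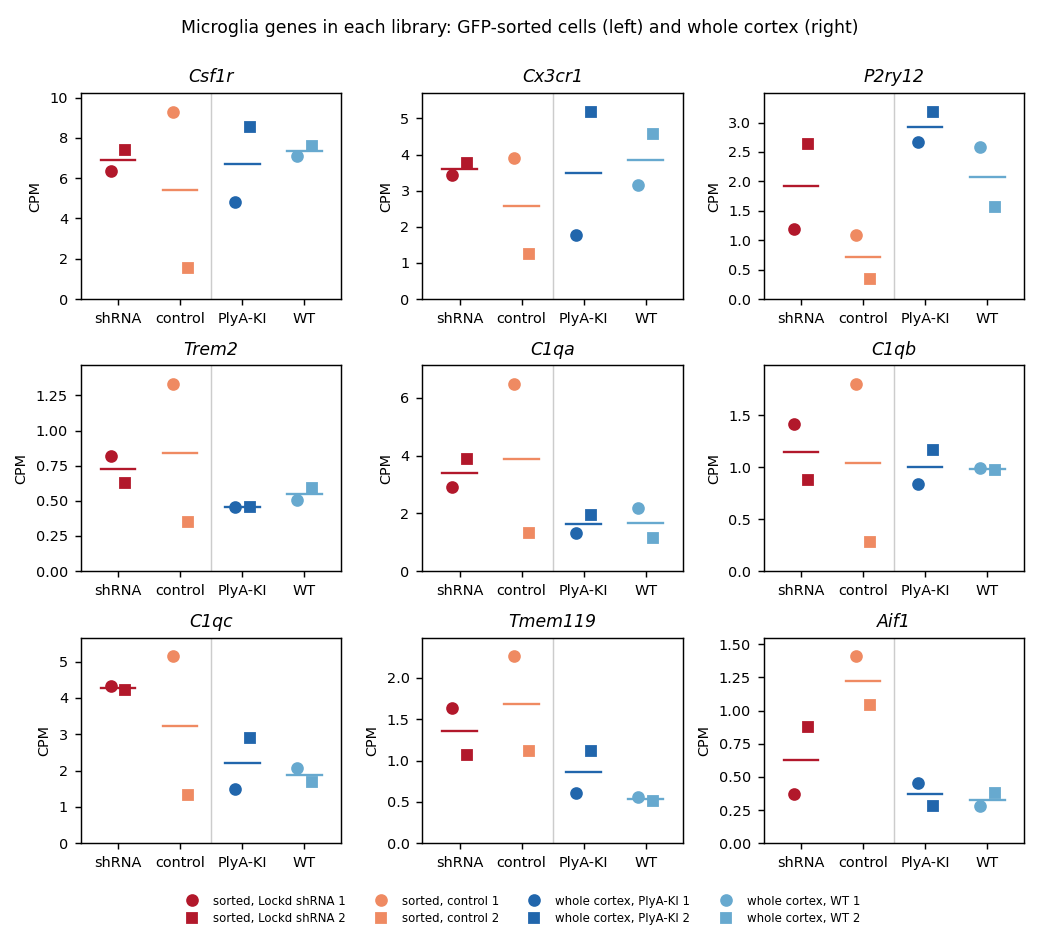
CPM of each microglia gene (y axis, linear from 0) in each library (points; circles are replicate 1, squares replicate 2; lines are group means, n = 2), with sorted cells left of the grey line and whole cortex right of it. Control 2 lies at or near the bottom of the sorted libraries in most panels, and the sorted and whole-cortex points overlap for all 9 genes, where 65.4% of all tested genes did not overlap.

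The 9 microglia genes summed to 8.57 to 32.7 CPM in the sorted libraries and 14.5 to 24.7 CPM in whole cortex. Relative to whole cortex, C1qa, C1qc, Tmem119 and Aif1 were higher in sorted cells by 1.81 to 2.49 times, P2ry12 was lower at 0.476 times, and Csf1r, Cx3cr1, C1qb and Trem2 did not pass the test. Thus 4 of the 9 genes were called higher where 35% of all tested genes were, and 1 was called lower where 37.1% were. In this contrast 72.1% of the 15641 tested genes were called in either direction, at an adjusted p under 0.05 in edgeR's quasi-likelihood test, so 5 called of 9 is no larger a share than the background. The median log2 fold change was 0.61 over the 9 genes and -0.03 over all tested genes. Without control 1 the median over the 9 genes was 0.02, and without control 2 it was 0.96. In bulk libraries, fewer cells of a type and less RNA per cell cannot be told apart.

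Csf1r encodes the receptor for CSF1 and interleukin-34 on which microglia depend. It lies on chromosome 18 from 61105572 to 61131139 (plus strand), where Mir6983 and Gm52352 overlap it in RefSeq. Csf1r was at 6.34 and 7.42 CPM in Lockd-shRNA cells, 9.29 and 1.53 CPM in control cells, 4.84 and 8.53 CPM in PlyA-KI cortices, and 7.09 and 7.61 CPM in WT cortices. Control 1 was the highest library of all and control 2 the lowest, so the groups overlapped. The log2 fold change of sorted cells over whole cortex was -0.22 ± 0.35 (SE, edgeR adjusted p = 0.589). Without control 1 it was -1.09 (edgeR adjusted p = 0.00214), and without control 2 it was 0.19.

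Cx3cr1 encodes the receptor for the neuronal chemokine CX3CL1 and lies on chromosome 9 from 120048683 to 120068296 (minus strand), overlapping Gm33858. Its levels were 3.43 and 3.77 CPM in Lockd-shRNA cells, 3.9 and 1.25 CPM in control cells, 1.78 and 5.18 CPM in PlyA-KI cortices, and 3.15 and 4.57 CPM in WT cortices. Low libraries occurred on both sides, control 2 and PlyA-KI 1. The log2 fold change was -0.28 ± 0.36 (SE, edgeR adjusted p = 0.492), at -0.77 without control 1 and 0.03 without control 2.

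P2ry12 encodes the purinergic receptor with which microglial processes sense ADP, and it lies on chromosome 3 from 59216271 to 59262985 (minus strand). P2ry12 was at 1.19 and 2.64 CPM in Lockd-shRNA cells, 1.09 and 0.348 CPM in control cells, 2.67 and 3.18 CPM in PlyA-KI cortices, and 2.59 and 1.56 CPM in WT cortices. All sorted libraries but shRNA 2 were below the lowest cortex. P2ry12 fell by 1.07 ± 0.35 (SE) on the log2 scale (95% interval -1.83 to -0.31, edgeR adjusted p = 0.0149). The call was lost without control 2 (log2 fold change -0.76, edgeR adjusted p = 0.0752), without shRNA 1 (-0.84, adjusted p = 0.0523) and without WT 1 (-0.87, adjusted p = 0.0591). P2ry12 lies inside Med12l, a gene on the plus strand, and its exons share 9 of 2546 bases with those of Med12l in GENCODE. Med12l itself was at 20.6 and 22.9 CPM in Lockd-shRNA cells, 28.9 and 27.1 CPM in control cells, 34.5 and 35.3 CPM in PlyA-KI cortices, and 35.1 and 38.2 CPM in WT cortices. The strand setting of the counting is not given, so reads of the 2 genes may not be separable and the value of P2ry12 is uncertain.

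Trem2 encodes a receptor for lipids and apolipoproteins that signals through the adaptor TYROBP, and it lies on chromosome 17 from 48346401 to 48352276 (plus strand). Trem2 rested on 5 to 17 counts in sorted libraries and 16 to 28 in cortices. Its levels were 0.821 and 0.628 CPM in Lockd-shRNA cells, 1.33 and 0.348 CPM in control cells, 0.458 and 0.455 CPM in PlyA-KI cortices, and 0.508 and 0.59 CPM in WT cortices. Every sorted library but control 2 was above every cortex. The log2 fold change was 0.61 ± 0.44 (SE, 95% interval -0.34 to 1.56, edgeR adjusted p = 0.225), at 0.02 without control 1 and 0.96 without control 2 (edgeR adjusted p = 0.0599).

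The complement genes C1qb, C1qc and C1qa lie side by side on chromosome 4, between 136880126 and 136898844, a span of 18719 bases with all 3 on the minus strand. C1qa was at 2.91 and 3.9 CPM in Lockd-shRNA cells, 6.48 and 1.32 CPM in control cells, 1.32 and 1.93 CPM in PlyA-KI cortices, and 2.19 and 1.14 CPM in WT cortices. C1qc was at 4.33 and 4.21 CPM in Lockd-shRNA cells, 5.15 and 1.32 CPM in control cells, 1.5 and 2.9 CPM in PlyA-KI cortices, and 2.06 and 1.69 CPM in WT cortices. For both genes every sorted library but control 2 was above every cortex. C1qb was at 1.42 and 0.88 CPM in Lockd-shRNA cells, 1.8 and 0.279 CPM in control cells, 0.84 and 1.17 CPM in PlyA-KI cortices, and 0.991 and 0.969 CPM in WT cortices. C1qb was thus spread wider among sorted libraries than among cortices, with cortex values in the middle of it.

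C1qa rose in sorted cells by 1.14 ± 0.39 on the log2 scale (SE, edgeR adjusted p = 0.019) and C1qc by 0.86 ± 0.34 (adjusted p = 0.0372), whereas C1qb had a log2 fold change of 0.11 ± 0.44 (adjusted p = 0.827). Without control 1 the log2 fold change was 0.39 for C1qa (adjusted p = 0.318) and 0.25 for C1qc (adjusted p = 0.492). The C1qa call was also lost without shRNA 2 (1.04, adjusted p = 0.0646), WT 2 (0.94, adjusted p = 0.0634) or PlyA-KI 1 (1.01, adjusted p = 0.0559). The C1qc call was also lost without shRNA 1, shRNA 2, WT 2 or PlyA-KI 1, with log2 fold changes of 0.86, 0.88, 0.79 and 0.65 (adjusted p 0.0731, 0.0675, 0.0899 and 0.116). In control against WT alone neither was called, at 1.21 for C1qa (adjusted p = 0.0803) and 0.77 for C1qc (adjusted p = 0.191). Without control 2, C1qa was at 1.52 and C1qc at 1.21 on the log2 scale. C1qb was at -0.79 without control 1 and 0.53 without control 2.

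Tmem119 encodes a membrane protein of microglia and lies on chromosome 5 from 113793729 to 113800396 (minus strand). Tmem119 was at 1.64 and 1.07 CPM in Lockd-shRNA cells, 2.26 and 1.11 CPM in control cells, 0.611 and 1.11 CPM in PlyA-KI cortices, and 0.559 and 0.506 CPM in WT cortices. The lower sorted libraries lay about level with PlyA-KI 2 and all sorted libraries were above the other cortices. It rose in sorted cells by 1.14 ± 0.36 (SE, log2, edgeR adjusted p = 0.0128), at 0.87 without control 1 (adjusted p = 0.0747) and 0.98 without shRNA 1 (adjusted p = 0.0589).

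Aif1 encodes IBA1, a calcium-binding protein of macrophages, and lies on chromosome 17 from 35170986 to 35176083 (minus strand). Aif1 was at 0.373 and 0.88 CPM in Lockd-shRNA cells, 1.41 and 1.04 CPM in control cells, 0.458 and 0.284 CPM in PlyA-KI cortices, and 0.28 and 0.379 CPM in WT cortices. The sorted library shRNA 1, with 5 counts of Aif1, lay within the range of the cortices and the other sorted libraries above it. Its log2 fold change was 1.31 ± 0.43 (SE, edgeR adjusted p = 0.0143), at 1.22 without control 1 (adjusted p = 0.0531) and 0.95 without shRNA 2 (adjusted p = 0.157). Aif1 reached the filter's minimum of 0.392 CPM in 3 of 4 sorted libraries and 1 of 4 cortices, so it entered the test through the sorted side. With no filter on low counts the value was also 1.31 (edgeR adjusted p = 0.0151).

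**Figure D2:**
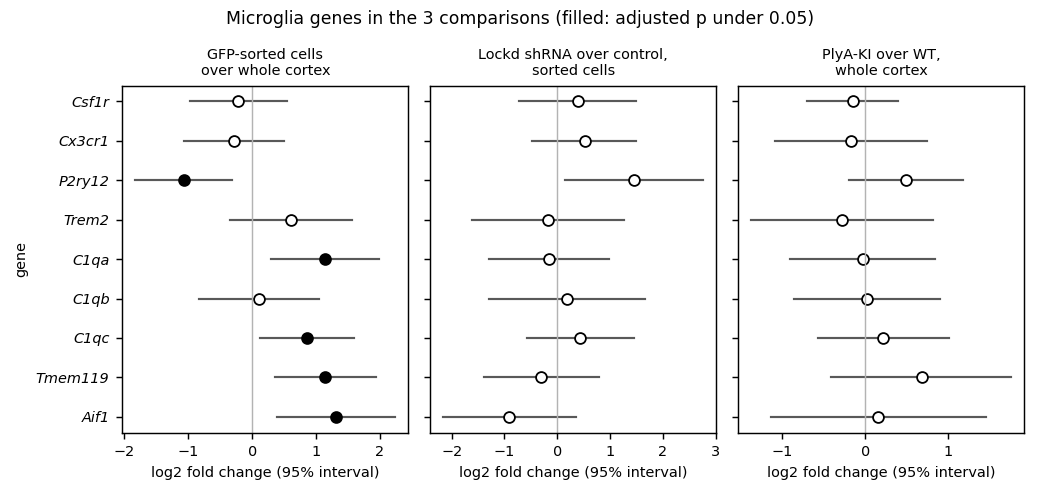
Log2 fold change (x axis) of each microglia gene with its 95% interval (line) in 3 comparisons, positive where the first-named group is higher; filled points had an edgeR adjusted p under 0.05. Filled points appear for sorted cells over whole cortex at P2ry12 (-1.07), C1qa (1.14), C1qc (0.86), Tmem119 (1.14) and Aif1 (1.31), and for no gene in the other panels.

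The calls in sorted cells over whole cortex depended on single libraries. All 4 calls of higher genes were lost without control 1, while all 4 stood without control 2. Leaving out control 1 also gave 2 lower genes, Csf1r beside P2ry12. The signs of P2ry12, C1qa, C1qc, Tmem119, Aif1 and Trem2 did not turn in any of the 8 fits that left out a library, and those of Csf1r, Cx3cr1 and C1qb did.

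**Figure D3:**
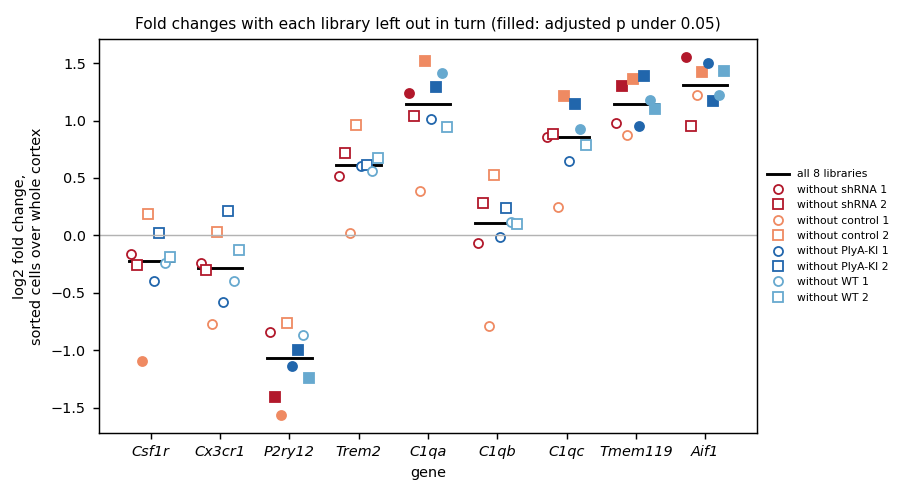
Log2 fold change of sorted cells over whole cortex (y axis) for each microglia gene with all 8 libraries (black bar) and with each library left out in turn (points, coloured by group, circles for replicate 1 and squares for replicate 2); filled points had an edgeR adjusted p under 0.05. Leaving out control 1 gave the lowest point for 8 of the 9 genes; for Aif1 the lowest was without shRNA 2.

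Levels of different genes were ordered by FPKM, the authors' count scaled by gene length and library total. Over the 4 sorted libraries the order by mean was C1qc (3.56 ± 1.59 FPKM, SD, n = 4), C1qa (3.38 ± 2), Csf1r (1.59 ± 0.854), Aif1 (1.06 ± 0.49), C1qb (1.03 ± 0.622), Cx3cr1 (0.829 ± 0.333), Tmem119 (0.73 ± 0.268), Trem2 (0.718 ± 0.379) and P2ry12 (0.564 ± 0.41). Each gene overlapped the next in its range. Over the 4 cortices it was C1qc (1.93 ± 0.589 FPKM, SD, n = 4), Csf1r (1.81 ± 0.405), C1qa (1.52 ± 0.458), P2ry12 (1.07 ± 0.291), Cx3cr1 (0.984 ± 0.407), C1qb (0.934 ± 0.126), Trem2 (0.462 ± 0.0579), Aif1 (0.4 ± 0.0975) and Tmem119 (0.334 ± 0.134). Here the neighbours overlapped save at 1 step, where every cortex had more C1qb (0.791 FPKM or more) than Trem2 (0.542 FPKM or less). P2ry12 stood at place 6 of the 9 genes in Lockd-shRNA cells, 9 in control cells, 4 in PlyA-KI cortices and 6 in WT cortices. In each group its range overlapped that of the gene placed before it. Within the Lockd-shRNA group the first 4 genes, C1qc, C1qa, Csf1r and C1qb, were separated at each step. So were the last 4 in WT cortices, P2ry12, Trem2, Aif1 and Tmem119.

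Genes of other cell classes were measured in the same contrast, in which 72.1% of all tested genes were called in either direction. Those of border-associated macrophages, which live in the meninges and around vessels, summed to 8.85 to 15.1 CPM in sorted cells and 32.3 to 80.5 CPM in whole cortex. Of their 12 genes, 8 were tested and 7 were called lower in sorted cells, with a median log2 fold change of -2.29. Mrc1, the mannose receptor, was at 0.139 to 1.56 CPM in sorted cells and 3.05 to 13.4 CPM in cortices, a log2 fold change of -2.90 ± 0.53 (SE, edgeR adjusted p = 0.000263). The scavenger receptor gene Stab1 (-2.13) and the endocytic adaptor gene Dab2 (-2.45) were also lower. Lyve1, a hyaluronan receptor named here after its values were seen, had 0 counts in all 4 sorted libraries, which allows up to 0.189 to 0.234 CPM in a library, and 50 to 129 counts in cortices.

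Genes of vessels, meninges and blood were lower still in sorted cells. Of all tested genes, 37.1% were called lower. Endothelial genes were called lower in 11 of 12 tested (median log2 fold change -4.91) and higher in 1, Mfsd2a. The vascular genes Kdr and Pecam1 were at 0.209 to 1.48 and 0.418 to 1.01 CPM in sorted cells, against 28.6 to 37.5 and 22.8 to 27.2 CPM in cortices. All 13 pericyte, fibroblast and meningeal genes were called lower (median -4.82). Erythroid genes were called lower in 9 of 11 tested and higher in 1 (median -3.69), and the embryonic globin gene Hbb-y had 0 to 1 counts in sorted libraries against 214 to 391 CPM in cortices. Monocyte, granulocyte and lymphocyte genes were near the floor on both sides, at a summed 1.12 to 2.3 CPM in sorted cells and 0.815 to 1.41 CPM in cortices. Only Cd79a, a part of the B-cell receptor, was tested, and it was called higher in sorted cells (0.522 to 1.13 CPM, against 0.313 to 0.527 CPM in cortices), with a log2 fold change of 1.16 ± 0.41 (SE, edgeR adjusted p = 0.0225). The T-cell genes Cd3e and Cd3g and the natural killer gene Ncr1, named after their values were seen, had 0 counts in all 8 libraries.

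**Figure D4:**
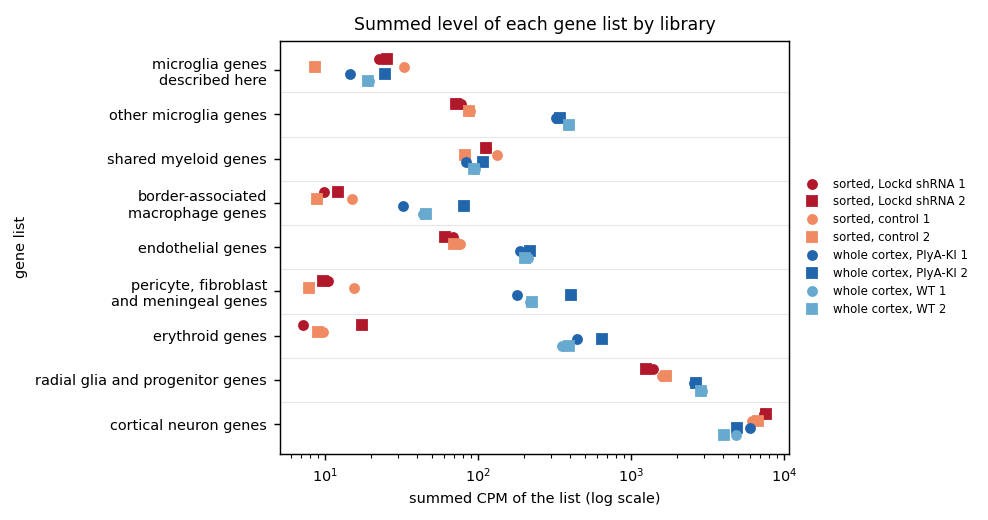
Summed CPM (x axis, log scale) of each gene list (rows) in each library (points, coloured by group; circles replicate 1, squares replicate 2). The microglia genes overlap between sorted cells (8.57 to 32.7 CPM) and whole cortex (14.5 to 24.7 CPM). The other microglia, border-associated macrophage, endothelial, meningeal, erythroid and radial glia lists lie lower in all 4 sorted libraries. Most of the sum of the other microglia list is Sall1 (54.6 to 78.5 CPM in sorted cells, 304 to 373 CPM in cortices), which neural progenitors also express.

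Further microglial and myeloid genes were mixed, in a contrast where 35% of all tested genes were called higher and 37.1% lower. Of 9 tested further microglia genes, 0 were called higher and 4 lower in sorted cells (median log2 fold change -1.07). One of the 4, Sall1, a transcription factor gene that neural progenitors also express, was at 54.6 to 78.5 CPM in sorted cells and 304 to 373 CPM in cortices, and it made up most of that list's sum. Olfml3 was also lower (-1.91 ± 0.25, SE, edgeR adjusted p = 1.72e-05), and Fcrls (-0.89) did not pass. The other called genes were P2ry13 (-1.07), a purinergic receptor gene next to P2ry12, and the fructose transporter gene Slc2a5 (-1.65), named after their values were seen. Genes that microglia share with other myeloid cells were called higher in 6 and lower in 3 of 28 tested (median 0.15). Among them the actin regulator gene Coro1a, which neurons also express, rose by 1.04 ± 0.10 (SE, log2), Csf2ra by 0.93 and the lysosomal gene Cd68 by 0.67, and Lcp1 fell by 3.39.

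Genes of the neural lineage were measured too, again beside 72.1% of all tested genes called in either direction. Radial glia and progenitor genes were called lower in 7 and higher in 0 of 10 tested (median log2 fold change -0.66), with Nes at 104 to 136 CPM in sorted cells and 559 to 823 CPM in cortices. Cortical neuron genes were called higher in 5 and lower in 2 of 10 (median 0.28), among them Tubb3 (0.83). Genes of interneurons and oligodendrocyte precursors were called higher in 4 and lower in 3 of 10. Among them, Olig2 was at 8.8 to 21.6 CPM in sorted cells and 1.05 to 1.65 CPM in cortices.

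The list of ligands and partners of the receptors and of C1q also held other signalling genes, Cd47 and Sirpa among them. This whole list had 6 called higher and 7 lower of 16 tested in sorted cells (median log2 fold change 0.38). Over all tested genes, 35% were called higher and 37.1% lower. Apoe, a lipid carrier that TREM2 binds, was at 43.3 and 47.1 CPM in Lockd-shRNA cells, 69 and 25 CPM in control cells, 18.6 and 29.5 CPM in PlyA-KI cortices, and 23.1 and 24.4 CPM in WT cortices. Control 2 was again the lowest sorted library, and Apoe rose by 0.94 ± 0.23 (SE, log2, edgeR adjusted p = 0.00296). The signal Cd47, which restrains phagocytosis, was higher in sorted cells (54.7 to 59.6 CPM) than in cortices (18.7 to 22.5 CPM), and its receptor gene Sirpa was lower (20.5 to 25.1 against 32.8 to 37.9 CPM). Of the ligands of CSF1R and CX3CR1, named here after their values were seen, Csf1 had a log2 fold change of 1.53 and Cx3cl1 one of -1.18, both past the threshold, and Il34 had 1 to 4 counts in a sorted library and 6 to 22 in a cortex.

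Lockd shRNA was set against control within the sorted cells, the knockdown question of the study as it bears on the microglia genes. None of the 9 genes passed the test, and of 13758 tested genes 0% were called by edgeR, where 1033 had an unadjusted p under 0.05 and DESeq2 called 48. The median log2 fold change was 0.18 over the microglia genes and -0.00 over all tested genes, with 5 values above 0 and 4 below. The groups overlapped for 7 of the 9 genes, and 34.7% of all tested genes did not overlap. For P2ry12 both Lockd-shRNA libraries (1.19 and 2.64 CPM) were above both control libraries (1.09 and 0.348 CPM), and for Aif1 both (0.373 and 0.88 CPM) were below (1.41 and 1.04 CPM). P2ry12 had a log2 fold change of 1.46 ± 0.61 (SE, 95% interval 0.15 to 2.77, unadjusted p = 0.032 and adjusted p = 0.579 in edgeR). Aif1 had the lowest value, -0.91 ± 0.58 (95% interval -2.16 to 0.35, edgeR adjusted p = 0.87). For the other 7 genes values ran between -0.30 (Tmem119) and 0.52 (Cx3cr1).

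This comparison turned on which control library stood in it. Without control 1 the median of the microglia genes was 1.53, with 8 of 9 values above 0, and Csf1r was called at 2.17 (edgeR adjusted p = 0.000705). The control arm is then 1 library, assumed to vary like the Lockd-shRNA libraries. Without control 2 the median was -0.62, with 1 of 9 above 0. Border-associated macrophage genes had 4 tested, 3 with values above 0 (median 0.18), and pericyte, fibroblast and meningeal genes 5 tested, 4 below 0 (median -0.20), with 0 called in each list. The part of other cells in the spread between the control libraries was not tested.

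PlyA-KI cortices were set against WT cortices, the knock-in question. None of the 9 genes passed, against 0.052% of 15398 tested genes, and none had an unadjusted p under 0.05. The median log2 fold change was 0.02 over the microglia genes and 0.01 over all tested genes, with 5 values above 0 and 4 below. The highest value was that of Tmem119, 0.68 ± 0.49 (SE, 95% interval -0.41 to 1.76, edgeR adjusted p = 0.598), with 0.611 and 1.11 CPM in PlyA-KI cortices and 0.559 and 0.506 CPM in WT cortices. P2ry12 followed at 0.49 ± 0.31 (95% interval -0.19 to 1.18, edgeR adjusted p = 0.535), with both PlyA-KI libraries above both WT libraries. For Tmem119 too, both PlyA-KI libraries were above both WT libraries. The lowest was Trem2, with both PlyA-KI libraries below both WT libraries (43.8% of all tested genes did not overlap between these groups), at -0.28 ± 0.49 (95% interval -1.37 to 0.82, edgeR adjusted p = 0.854). The narrowest interval, that of Csf1r, ran from -0.70 to 0.40.

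The PlyA-KI libraries differed from each other for these genes. PlyA-KI 2 was the highest cortex for 6 of the 9 genes and PlyA-KI 1 the lowest for 4, with Cx3cr1 at 1.78 CPM in PlyA-KI 1 and 5.18 CPM in PlyA-KI 2. Without PlyA-KI 2, the median of the microglia genes was -0.29 and Cx3cr1 was called at -1.14 (edgeR adjusted p = 0.0278), with the lone PlyA-KI library assumed to vary like the WT libraries. The same library was also high in border-associated macrophage genes, which summed to 80.5 CPM there and to 32.3 to 45.4 CPM in the other cortices, as in Mrc1 at 3.05 and 13.4 CPM in PlyA-KI cortices against 5.39 and 6.3 CPM in WT cortices. Pericyte, fibroblast and meningeal genes, tested in the same way, had 12 of 13 values above 0 (median 0.51) with 0 called. The part of these cell classes in the result was not tested.

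Microglia genes varied together across libraries, with exceptions. After centring log2 (CPM + 0.5) within each experiment, each gene was set against the mean of the other 8 over the 8 libraries. Pearson's r was 0.96 for C1qc and Csf1r, 0.91 for C1qa, 0.90 for C1qb, 0.80 for Trem2, 0.78 for Cx3cr1, 0.60 for Tmem119, 0.56 for P2ry12 and -0.09 for Aif1. These are descriptions over 8 libraries that share strain, age and depth within an experiment. The mean of the 9 genes deviated from the average of its experiment by -0.79 in control 2 and by 0.53 in control 1 (log2), and by -0.20 to 0.25 in the other libraries, so the control libraries weigh most in the likeness.

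Among 14111 other genes with a mean of 0.5 CPM or more, the 10 most like the mean of the microglia genes were Ctss (r = 0.987), Slc11a1 (0.981), Macir (0.977), Unc93b1 (0.976), Apoe (0.975), Arhgap45 (0.973), Laptm5 (0.971), 4930525G20Rik (0.968), Ccl3 (0.965) and Triap1 (0.963). Ctss, the lysosomal protease cathepsin S, was at 3.58 and 4.4 CPM in Lockd-shRNA cells, 5.39 and 1.04 CPM in control cells, 2.27 and 4.32 CPM in PlyA-KI cortices, and 2.64 and 2.57 CPM in WT cortices. Slc11a1, a metal transporter of macrophage phagosomes, was at 0.895 and 1.38 CPM in Lockd-shRNA cells, 2.26 and 0.0696 CPM in control cells, 0.407 and 0.739 CPM in PlyA-KI cortices, and 0.432 and 0.506 CPM in WT cortices. Both were lowest in control 2 among the sorted libraries. Macir was like the microglia genes in pattern but ran only between 46.1 and 59.4 CPM, so a high r here does not mean a large change. Of the 10, Ctss and Laptm5 stand in the myeloid lists and Apoe among the partners, and 75 of the 14111 genes had an r above 0.9.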

How the data were processed

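Per the labels' protocols, messenger RNA was captured, fragmented and made into libraries (KAPA Hyper Prep). The tools named, per the submitters' processing notes, are featureCounts, HISAT2, Trimmomatic and bcl2fastq, on mm10. Versions, gene annotation and strandedness were not given in the sources used here. The authors deposited, for each library, whole-number counts per gene that were not normalised, and an FPKM value beside each count. Symbols were matched by Entrez identifier to RefSeq (GRCm38.p6) for 25274 of 27178 genes, and the unnamed genes held 0.426 to 0.97% of a library's counts.

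Computed here: CPM from deposited totals, and 3 comparisons in edgeR 4.0.16 (R 4.3.3): filterByExpr, TMM scaling (factors 0.991 to 1.016), two-sided quasi-likelihood test, Benjamini-Hochberg adjustment over all tested genes, threshold 0.05. Sorted cells against whole cortex was 1 fit of 8 libraries; the other comparisons used their own 4. The standard error is the absolute log2 fold change over the square root of F. The procedure was run on simulated counts, with the same spread for all genes and known changes only in genes above a minimum mean count. The even counts of the cortex tables and the spread of the microglia genes themselves were not simulated. Labels do not say that replicates came from separate litters, so p-values measure the spread between these libraries. Limits of 3 counts and exact intervals cover counting error only.

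Genes, lists and alternatives were chosen with earlier results of these data known. Of each further list, the genes named are among the up to 4 with the highest mean CPM unless said otherwise, and the 10 named by likeness are the genes most like the microglia genes by the correlation given above; some listed genes are not reported here. Alternatives were DESeq2 1.42.0 and its size factors, library totals, other filters on low counts, the replicate number as a block, leaving out each library, control against WT, and 1 fit of all libraries.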

Additional observations from a re-analysis of the deposited data

How the results depend on the processing

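Results are given for sorted cells over whole cortex, then Lockd shRNA over control, then PlyA-KI over WT. With each library left out in turn, 0 to 4 microglia genes were called higher and 0 to 2 lower in the first comparison, 0 to 1 were called in the second and 0 to 1 in the third. A group left with 1 library was assumed to vary like the others. In control against WT alone, 2 genes were called higher in the first comparison. DESeq2, its size factors in edgeR, library totals and other filters on low counts left 4 genes called higher and 1 lower, and halving the cortex counts, an alternative chosen after seeing the data, did so too.

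Over all genes, the second comparison called 0; no filter on low counts gave 184, DESeq2 48, 1 fit of 8 libraries 53, and leaving out a library 18 to 133. The third called 8; no filter gave 484, DESeq2 115, 1 fit of 8 libraries 4, and leaving out a library 48 to 565. DESeq2 gave no adjusted p to 8 of the 9 microglia genes in the second comparison and 6 in the third.

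Replicate numbers are shared by the groups, but the labels do not say that they pair libraries; differences between same-numbered libraries correlated at 0.16 and 0.11. With the replicate number as a block, 161 genes were called in the second comparison and 2193 in the third, C1qc lost its call in the first (0.83, edgeR adjusted p = 0.0634, 3 called higher), and C1qa was at 0.07 in the second and 0.00 in the third.

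Directions turned, over the fits that left out a library, for these log2 fold changes. In the first comparison, C1qb ran between -0.79 and 0.53, Csf1r between -1.09 and 0.19, and Cx3cr1 between -0.77 and 0.21. In the second, C1qa ran between -0.89 and 1.37, C1qb between -0.62 and 2.01, C1qc between -0.24 and 1.69, Csf1r between -0.40 and 2.17, Cx3cr1 between -0.08 and 1.53, Tmem119 between -0.72 and 0.28, and Trem2 between -0.84 and 1.04. In the third, C1qa ran between -0.44 and 0.50, C1qb between -0.24 and 0.25, C1qc between -0.34 and 0.63, Csf1r between -0.63 and 0.21, Cx3cr1 between -1.14 and 0.41, and Aif1 between -0.22 and 0.44. The cause was not tested. Counts of 4 to 119 per gene in sorted libraries and the spread between libraries limit the precision.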

Other observations

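A ratio between 2 genes within a library does not move when both are scaled alike. The 3 C1q genes together had 1.36 and 1.21 reads per read of Csf1r in Lockd-shRNA libraries and 1.45 and 1.91 in control libraries, against 0.758 and 0.703 in PlyA-KI cortices and 0.738 and 0.499 in WT cortices. Control 2, low in both, had the highest ratio, and sorted libraries and cortices did not overlap. C1qb alone over Csf1r did overlap, at 0.119 to 0.224 in sorted libraries and 0.127 to 0.174 in cortices, and C1qb over C1qc was lower in sorted libraries (0.209 to 0.348) than in cortices (0.402 to 0.575). Of the 36 pairs of microglia genes, 11 had ratios that did not overlap between sorted libraries and cortices. C1qa and C1qc each had ratios to Csf1r, Cx3cr1 and P2ry12 that did not overlap, and relative to each of these both were higher in sorted libraries. P2ry12 over C1qa was 0.169 to 0.677 in sorted libraries and 1.19 to 2.02 in cortices. Beside these counts, 72.1% of tested genes were called between sorted cells and whole cortex, and 65.4% did not overlap in CPM. For ratios to Csf1r alone, 18.1% of tested genes other than Csf1r did not overlap. The share over pairs of genes in general was not computed, so the 11 of 36 pairs have no like background. These ratios were looked at after the values were seen and have no test, and strain, age, sort and experiment cannot be told apart in them.

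Low counts were mostly even in the whole-cortex tables. Among genes with 1 to 20 counts, even counts made up 65.8 and 66.8% in PlyA-KI libraries and 66.5 and 66.6% in WT libraries, against 43.5 and 43.5% in Lockd-shRNA libraries and 44 and 42.1% in control libraries. In cortices, 796 to 820 genes had 2 counts and 331 to 377 had 1, while in sorted libraries 663 to 741 genes had 2 counts and 1054 to 1206 had 1. Among genes with more than 100 and fewer than 1000 counts the even share was 48.9 to 51.4% in all libraries. The cause was not tested. With the cortex counts halved, the log2 fold change of sorted cells over whole cortex was -1.05 for P2ry12 and 1.29 for Aif1, both still called.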
